A study of Coturnix japonica with 24 samples.

Results

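Ion channel genes were followed in the mediobasal hypothalamus of Japanese quail, the brain region above the pituitary stalk where birds read day length. The genes are those whose only symbol in the platform's probe annotation starts with KCN (potassium channels and their accessory proteins), with SCN and a digit (voltage-gated sodium channels) or with CACN (voltage-gated calcium channels). There were 98 such genes among the 13009 genes with 1 symbol on the array, and each was read from its probe set with the highest mean. The genes were taken by name, with earlier results of these data known, and measured values then chose the probe set of each. The tissue came from male birds that were divided at 8 weeks of age. Birds moved to long days, with 20 h of light and 4 h of darkness, were kept so until sampling 2 weeks later. Birds on short days had 6 h of light and 18 h of darkness. Birds of both photoperiods had spent 4 weeks on short days before. Each photoperiod was sampled at zeitgeber time (ZT) 2, 6, 10, 14, 18 and 22, read here as hours after lights on since the labels do not define it. A group of 1 photoperiod and time had 2 Affymetrix chicken arrays, each holding RNA pooled from 3 birds, so 12 arrays stood for each photoperiod. The arrays numbered 1 in their groups are called array set 1 and those numbered 2 array set 2.

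Voltage-gated channels open and close with the membrane potential. Sodium channels carry the rising phase of the action potential, calcium channels couple it to secretion and gene regulation, and potassium channels end it and hold the membrane at rest. Around each pore sit accessory proteins that set where and how fast the channel works. In hypothalamic neurons these channels shape firing patterns and the release of neurohormones, and glial cells use inward rectifier and two-pore-domain potassium channels to buffer potassium.

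Values are scaled intensities, which are the deposited intensities brought to a common median per array, and a difference is the long-day mean less the short-day mean of log2 values, given with its standard error. The probes were designed on chicken sequences, so levels of different genes are not compared. Background was the 95th percentile of 746 probe sets without the chicken prefix and lay between 15.4 and 21.5 on the 24 arrays. Array set 1 was brighter than array set 2 in 12 of 12 groups, by 1.22 to 1.85 times before scaling, and both sets held every group. Neuron markers were above background on at least 12 arrays for 14 of 14 genes measured, and their summed scaled intensity was 22620 to 31900 on long-day arrays and 21780 to 28620 on short-day arrays. One array stood apart, the set 2 array of long days at ZT14. Its median correlation with the other arrays was 0.805, against 0.82 to 0.859 for the other 23, and its summed oligodendrocyte markers were 3205, against 6701 to 9555. For several named values that changed much without it, the value without it stands beside it.

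Many channel genes were near the limit of detection. Of the 98 genes, 30 were above background on all 24 arrays, 31 on 12 to 23 arrays, 29 on 1 to 11 and 8 on none. A long-day array had 53 to 66 of them above background (median 59), and a short-day array 49 to 68 (median 60). Of all probe sets with the chicken prefix, 40.6% to 49.7% were above background on a long-day array. On a short-day array 38.8% to 50.5% were. The channel genes were counted by their probe set with the highest mean, while these shares cover every probe set. A filter on low means left 85 genes in the tests, among them all 61 that were above background on at least 12 arrays. The genes found on no array were KCNA3, KCNA5, KCNH4, KCNS3, KCNJ1, KCNJ16, KCNK16 and CACNG1. Several genes known for skeletal muscle were seldom above background. CACNA1S, the pore of the muscle L-type calcium channel, and SCN4A, the muscle sodium channel, were above it on 5 of 24 arrays each, and CACNG1, the muscle gamma subunit, on 0. The muscle markers MYL1, TNNI2, TNNC2 and MYLPF were likewise on 0, 0, 1 and 3 arrays, whereas ACTA1 was on 24 and TNNT3 on 22. In contrast, all 3 alpha2delta genes on the array, CACNA2D1, CACNA2D2 and CACNA2D3, were above background everywhere.

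**Figure D1:**
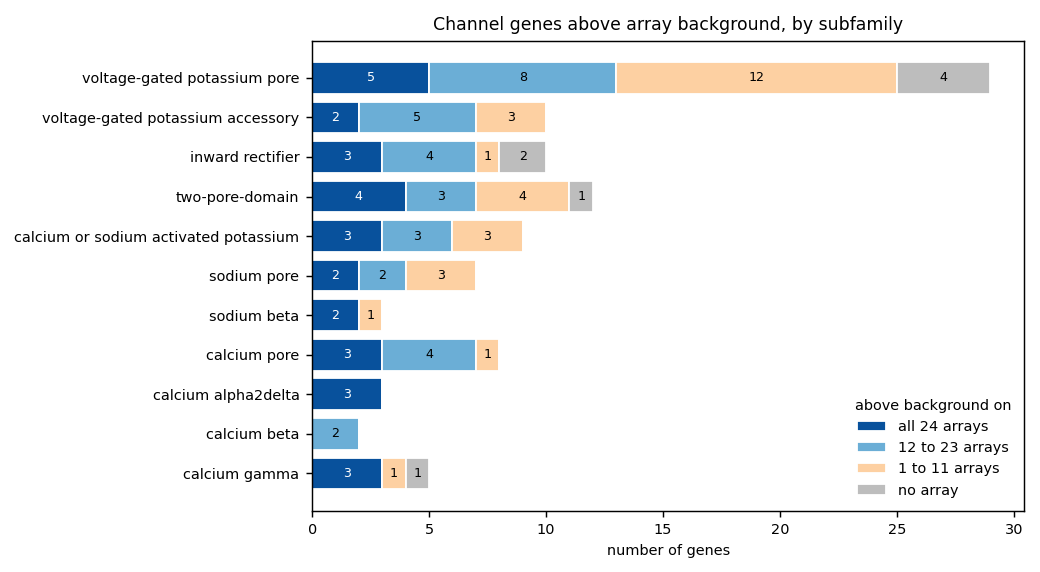
Number of channel genes per subfamily (horizontal axis), split by the number of arrays on which the probe set was above background. The pore subunits of voltage-gated potassium channels hold the most genes, 29, of which 13 were above background on at least 12 arrays, and all 3 alpha2delta genes were above it on all 24.

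None of the 85 channel genes tested passed the photoperiod test, the mean over 6 times in limma with Benjamini-Hochberg adjustment over all 28829 probe sets, of which 0.132% passed. The smallest adjusted p was 0.344, for KCNA2. At an unadjusted p under 0.05 there were 7 genes, 8.24% of those tested, against 5.42% of all probe sets and 5.97% of 11830 named genes by the same choice of probe set. Of these, KCNC1, KCNQ3, KCNT1 and SCN1A had higher means in long days (4 genes, 4.71%, against 2.64% of all probe sets). KCNA2, KCNAB2 and KCNMA1 had lower ones (3 genes, 3.53%, against 2.78%). No gene had all 12 long-day arrays on one side of all 12 short-day arrays, which 0.0382% of probe sets did upwards and 0.0243% downwards. The median difference was 0.03 over the 85 genes (44 higher and 41 lower in long days) and -0.01 over all probe sets. The median size of a difference was 0.24 for channel genes and 0.19 for all probe sets.

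The precision of these differences was higher for brighter genes. The 95% interval of the long-to-short ratio lay within 2-fold either way for 62 of the 85 genes, for 55 of the 61 above background on at least 12 arrays, and for 30 of the 30 above it on all arrays. It lay within 1.5-fold for 24, 23 and 19 of them. The 2 arrays of a group differed by a median of 0.52 log2 units for the 85 genes, 0.46 for the 61 and 0.36 for the 30. In this bulk tissue, fewer cells of a type and less RNA per cell cannot be told apart.

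**Figure D2:**
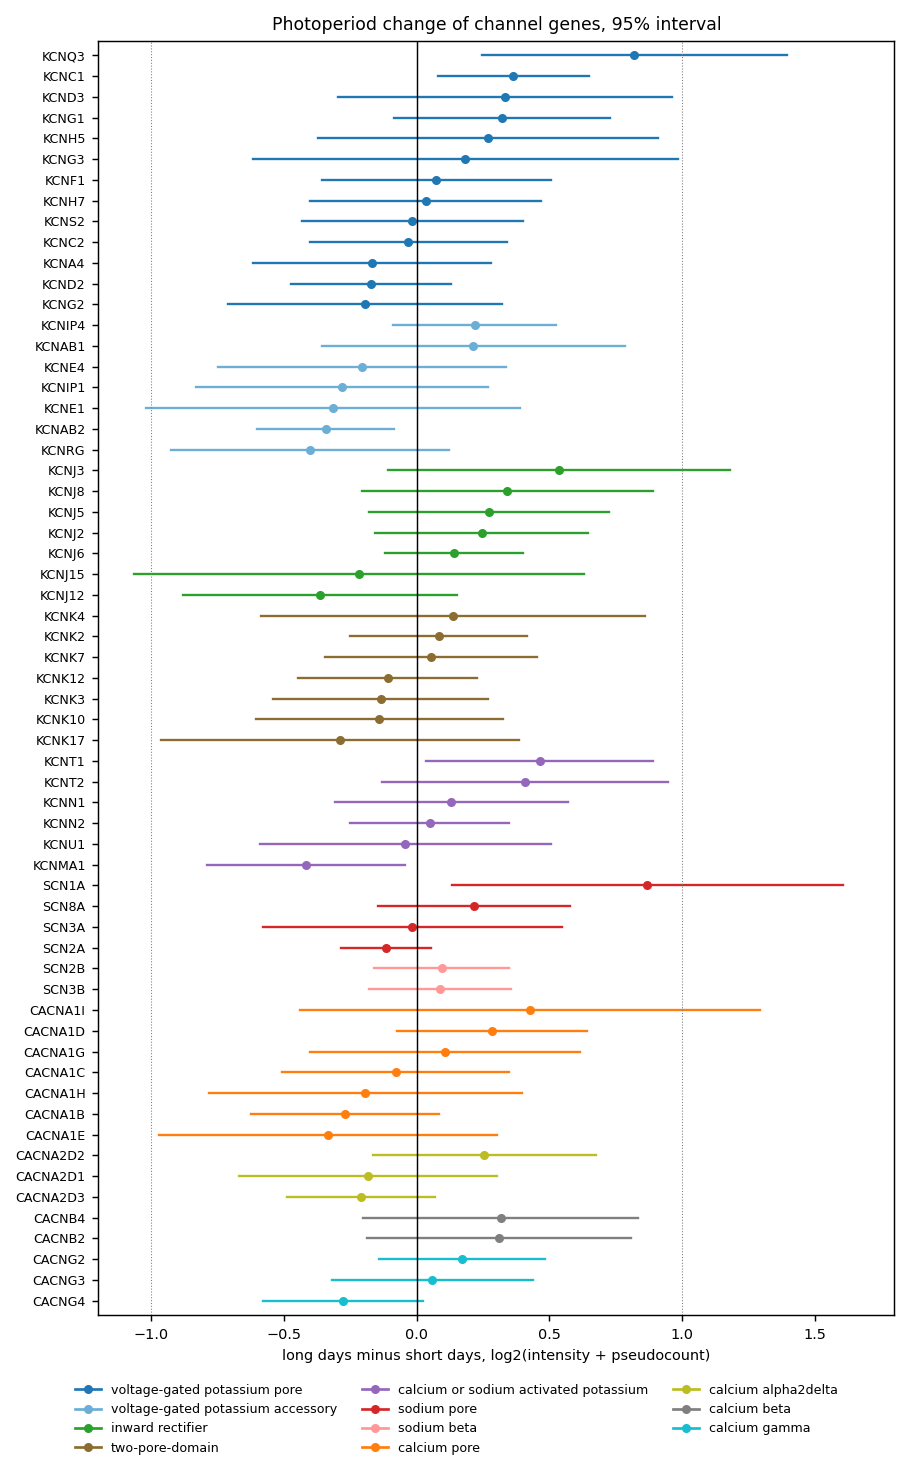
Difference between photoperiods for the 61 channel genes above background on at least 12 arrays on the log2(intensity + pseudocount) scale, positive where long days were higher, with points for the estimate, lines for the 95% interval and colours for subfamilies. Dotted lines mark a 2-fold difference. Intervals of 6 genes (KCNQ3, KCNC1, KCNAB2, KCNT1, KCNMA1 and SCN1A) do not cross 0, although none of these passed the adjusted test.

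Pore subunits of voltage-gated potassium channels had 23 genes tested, 13 higher and 10 lower in long days, with a median difference of 0.07. KCNA2, a Kv1 subunit that sits along axons and limits excitability, had the smallest p of all channel genes. Its scaled intensity was 1.77 to 31.5 on long-day arrays (median 10.2) and 11.2 to 28.3 on short-day arrays (median 21.1). The long-day mean was the lower one at all 6 times, as it was for 2.23% of all probe sets, yet the array ranges overlapped and only 1 of 12 long-day and 8 of 12 short-day arrays were above background. The fitted difference was -1.25 ± 0.35 (adjusted p = 0.344, limma). With values under background raised to it, the difference was -0.18, and with a pseudocount of 16 it was -0.51.

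KCNQ3, a Kv7 subunit of the M-current that damps repetitive firing, gave 21.4 to 70.3 on long-day arrays (median 40.1), all above background, and 1.29 to 58.5 on short-day arrays (median 32.2), of which 9 were above it. Its difference was 0.82 ± 0.28 (adjusted p = 0.622, limma). Raising values under background to it gave 0.33, and a pseudocount of 16 gave 0.42. Its 4 other probe sets, of which 1 was above background on at least 12 arrays, gave 0.01, -0.57, -0.74 and 0.26. By the probe set used, KCNQ3 differed by 3.31 at ZT10, 1.55 at ZT22 and -0.92 at ZT14 (-0.49 without the array that stood apart). Its difference was therefore not even over the 6 times. KCNC1, a Kv3 subunit of fast-spiking neurons, was bright throughout. It gave 315 to 536 on long-day arrays (median 376) and 193 to 389 on short-day arrays (median 317). The ranges overlapped from 315 to 389, and the long-day mean was higher at all 6 times, as for 2.07% of all probe sets. At ZT14, however, its difference was only 0.02, and it was -0.05 without the array that stood apart. The difference was 0.36 ± 0.14 (adjusted p = 0.727), 0.12 in array set 1 and 0.61 in array set 2, and a second bright probe set of the gene gave -0.03.

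Other bright Kv pore genes had small differences with intervals that crossed 0. KCNC2, another Kv3 subunit, differed by -0.03 ± 0.18, and KCND2, the Kv4 subunit of the A-type current, by -0.17 ± 0.15. At ZT14 alone KCNC2 differed by -0.74, and by 0.07 without the array that stood apart. KCNF1 and KCNS2, which modify Kv2 channels and are silent alone, differed by 0.07 ± 0.21 and -0.02 ± 0.20. KCNQ1, a Kv7 subunit best known from heart and epithelia, was above background on only 5 arrays, with 1.01 to 22.9 in long days (median 11.2) and 7.70 to 24.6 in short days (median 14.6). Its difference of -0.63 ± 0.35 (adjusted p = 0.948) therefore compares mostly dim values.

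Among accessory subunits of voltage-gated potassium channels, 2 of 8 genes tested had a higher mean in long days and 6 a lower one, with a median difference of -0.30. KCNAB2, a cytoplasmic beta subunit of Kv1 channels, gave 299 to 1009 on long-day arrays (median 717) and 728 to 1056 on short-day arrays (median 907). The long-day median lay under the lowest short-day array, and the groups overlapped from 728 to 1009. The difference was -0.34 ± 0.12 (adjusted p = 0.697, limma), and -0.24 without the ZT14 array that stood apart. Its probe sets went different ways. A second one that was above background on all 24 arrays gave 0.35, at an unadjusted p of 0.0376, and another bright one gave -0.29. KCNIP4, a Kv4-binding calcium sensor, had the highest difference of the group, 0.22 ± 0.15, from 124 to 255 in long days (median 205) and 87.2 to 250.3 in short days (median 164). KCNE2, a small membrane-spanning beta subunit, had the lowest, -0.50 ± 0.41, on 3 arrays above background, and its sign turned to 0.034 once values under background were raised to it.

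Inward rectifiers, which pass potassium near rest, had 5 genes higher and 3 lower of 8 tested, with a median of 0.19. KCNJ3, a subunit of G protein-gated GIRK channels, had the largest difference, 0.54 ± 0.31 (adjusted p = 0.962). It gave 24.6 to 82.9 on long-day arrays (median 54.6) and 7.49 to 76.3 on short-day arrays (median 38.4), so the groups overlapped over most of their range. Its GIRK partners KCNJ5 and KCNJ6 differed by 0.27 ± 0.22 and 0.14 ± 0.13, and KCNJ2, a strong inward rectifier, by 0.24 ± 0.19. The pore of ATP-sensitive potassium channels in vessel wall cells, KCNJ8, differed by 0.34 ± 0.27. KCNJ12, another strong rectifier, had the lowest difference, -0.36 ± 0.25, with 10 of 12 long-day and 12 of 12 short-day arrays above background.

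Two-pore-domain genes, whose channels carry the background potassium leak, were split with 5 higher and 6 lower of 11 and a median of -0.11. KCNK2, the stretch- and lipid-sensitive TREK1, gave 315 to 564 on long-day arrays (median 445) and 156 to 549.9 on short-day arrays (median 457), a difference of 0.08 ± 0.16. KCNK3, the acid-sensitive TASK1, differed by -0.14 ± 0.20, and KCNK12 by -0.11 ± 0.16. The lowest and highest differences of the family came from dim genes. KCNK5 gave -0.73 ± 0.41 on 3 arrays above background, which became 0.016 with values under background raised to it, and KCNK15 gave 0.41 ± 0.38 on 10 arrays.

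Potassium channels opened by calcium or sodium had 5 genes higher and 3 lower of 8, with a median of 0.09. KCNMA1, the pore of the large-conductance BK channel, gave 66.1 to 161 on long-day arrays (median 110) and 88 to 209 on short-day arrays (median 163). Short-day arrays reached higher, but the ranges overlapped from 88 to 161. The difference was -0.42 ± 0.18 (adjusted p = 0.86), and -0.31 (unadjusted p 0.0808) without the ZT14 array that stood apart. The other 3 KCNMA1 probe sets, each above background on at least 23 arrays, gave 0.09, 0.08 and -0.18. KCNT1, a sodium-activated channel, gave 27.7 to 77.6 in long days (median 54.2) and 25.2 to 61.4 in short days (median 36.2). Its difference was 0.46 ± 0.21 (adjusted p = 0.879), 0.73 in array set 1 and 0.19 in array set 2, and its probe sets on 24 and 15 arrays above background gave 0.13 and -0.13. KCNMB4, the BK beta subunit of neurons, had a difference of -0.60 ± 0.38 and 11 arrays above background. Its long-day mean log2 value was under the short-day one at each of the 6 times, a pattern of 2.23% of all probe sets. At ZT14, however, its difference was only -0.007, and it was 0.97 without the array that stood apart. The small-conductance channel genes KCNN1 and KCNN2 differed by 0.13 ± 0.21 and 0.05 ± 0.15.

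**Figure D3:**
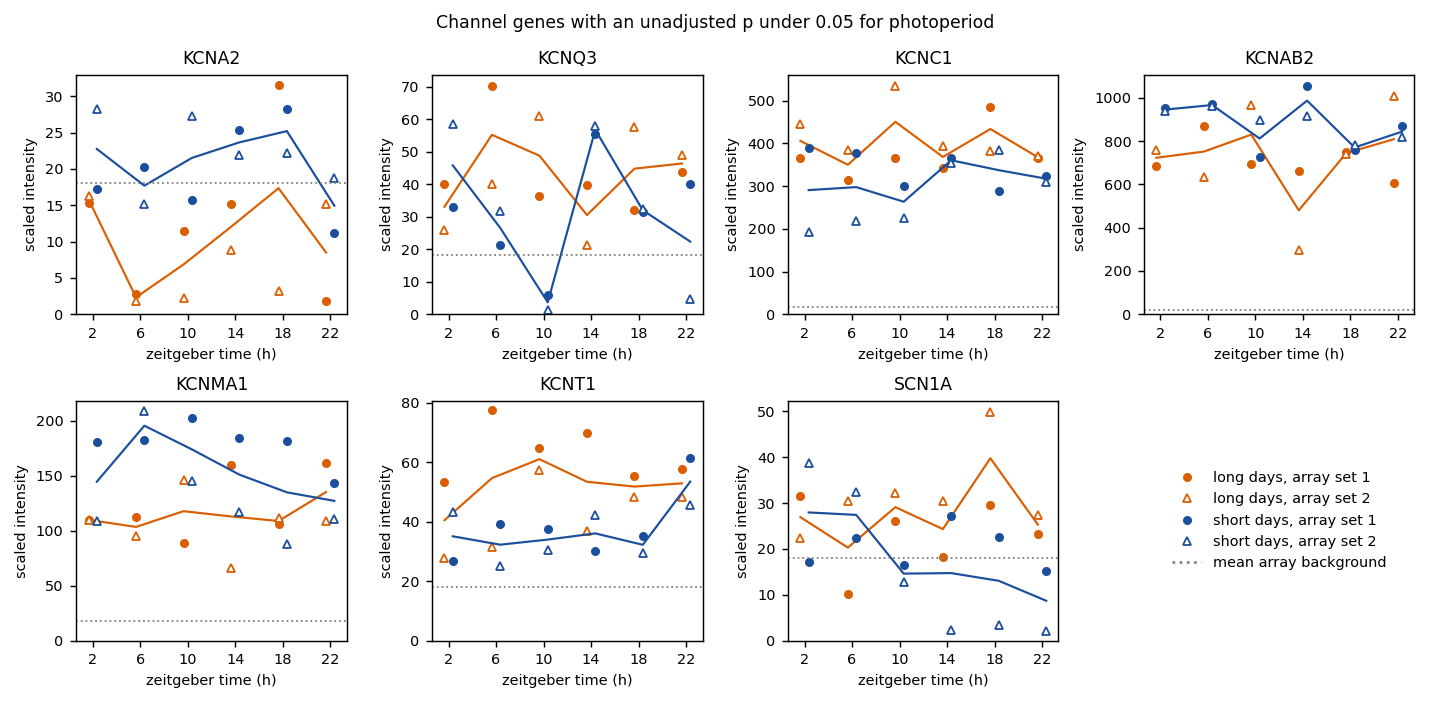
Scaled intensity against zeitgeber time (h) for the 7 channel genes with an unadjusted p under 0.05 for photoperiod, with circles for array set 1, triangles for array set 2, lines for the mean of 2 arrays and a dotted line for the mean array background of 18.1. The ranges of long-day (orange) and short-day (blue) arrays over all times overlap in every panel. KCNA2 lies around the background line, and KCNQ3 drops under it in short days at ZT10.

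Sodium channel pores had 3 genes higher and 4 lower of 7, with a median of -0.02. SCN2A, a main sodium channel of central axons, had the smallest standard error of all channel genes by the probe set used. It gave 1952 to 2645 on long-day arrays (median 2364) and 2083 to 3046 on short-day arrays (median 2530), which overlapped widely. The difference was -0.11 ± 0.08, with a 95% interval from -0.28 to 0.06. That interval holds for 1 probe set. The 4 others of SCN2A, of which 3 were above background on at least 12 arrays, gave -0.03 to 0.29. Only 1 of them was lower in long days. SCN8A, which clusters at the axon initial segment and nodes, differed by 0.22 ± 0.18. Its 4 other probe sets, of which 2 were above background on at least 12 arrays, gave -0.33 to 0.69. SCN1A, the sodium channel of many inhibitory neurons, gave 10.1 to 49.9 in long days (median 28.5) and 2.14 to 38.7 in short days (median 16.8), and was above background on 11 of 12 long-day and 6 of 12 short-day arrays. Its difference was the highest of all channel genes, 0.87 ± 0.36 (adjusted p = 0.823), but 0.13 in array set 1 and 1.61 in array set 2. It was 0.28 with values under background raised to it, and the other SCN1A probe sets, on 5 and 3 arrays above background, gave 0.30 and 0.05. Names of the probe sets show one transcript cluster shared by all 3 of SCN1A, 2 of the 5 of SCN2A and 1 of the 2 of SCN3A, so signal of these related genes may not be fully separate. One further probe set annotated to all 3 genes was left out. SCN11A, a channel best known from sensory neurons, differed by 0.61 ± 0.30 (adjusted p = 0.917) and was above background on 1 array. The beta subunits SCN2B and SCN3B, which help to place sodium channels in the membrane, differed by 0.09 ± 0.12 and 0.09 ± 0.13. The 2 other probe sets of SCN2B gave -0.48 and 0.18, and those of SCN3B gave -0.26 and 0.03. The lowest difference of the pores was -0.61, for SCN4A, which was seldom above background. Among the beta subunits the lowest was 0.04, for SCN4B, which was -0.01 without the ZT14 array that stood apart.

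Calcium channel pores had 3 genes higher and 5 lower of 8, with a median of -0.08. CACNA1D, an L-type channel that opens at low voltage and supports pacemaking, gave 152 to 285 on long-day arrays (median 239) and 109 to 271 on short-day arrays (median 194). The long-day mean was higher at 5 of 6 times, within overlapping ranges, and the difference was 0.28 ± 0.17 (adjusted p = 0.964), -0.06 in array set 1 and 0.63 in array set 2. CACNA1B, the N-type channel of nerve terminals, differed by -0.27 ± 0.17, and CACNA1C, the other neuronal L-type channel, by -0.08 ± 0.21. T-type channels, which underlie burst firing, gave 0.11 ± 0.25 for CACNA1G, -0.19 ± 0.28 for CACNA1H and 0.43 ± 0.42 for CACNA1I, the highest of the pores. At ZT14 alone CACNA1G differed by -0.88 and CACNA1I by 1.15. Without the array that stood apart these were -0.07 and 2.65. CACNA1E, the R-type channel, was lowest at -0.33 ± 0.31, and was -0.90 in array set 1 but 0.23 in array set 2.

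Calcium channel accessory genes showed no shared direction. The alpha2delta genes, which carry channels to the surface, differed by 0.25 ± 0.20 for CACNA2D2, -0.18 ± 0.23 for CACNA2D1 and -0.21 ± 0.13 for CACNA2D3. CACNA2D2 gave 0.01 in array set 1 and 0.50 in array set 2. The 3 other probe sets of CACNA2D1 gave -0.30 to 0.08. Those of CACNA2D3, of which 1 was above background on at least 12 arrays, gave 0.03 and 0.27. The cytoplasmic beta subunits CACNB2 and CACNB4 differed by 0.31 ± 0.24 and 0.32 ± 0.25. Of the gamma subunit family, several of which also escort AMPA receptors, CACNG4 gave 149 to 359 on long-day arrays (median 242) and 201 to 379 on short-day arrays (median 279). That difference was -0.28 ± 0.15 (adjusted p = 0.931), -0.45 in array set 1 and -0.11 in array set 2. CACNG2, known as stargazin, differed by 0.17 ± 0.15 over both sets and by -0.21 in array set 1 alone.

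At single times, 0 of the 85 genes passed the adjusted test in limma at any of the 6. Of all probe sets, 0.00694% passed at ZT2, 0.0139% each at ZT6 and ZT10, and 0.0277% at ZT14. For ZT18 that share was 0.0173%, and for ZT22 it was 0.0104%. At an unadjusted p under 0.05, 3 of 85 genes (3.53%) stood out at ZT2, against 4.08% of all probe sets. There were 4 genes (4.71%) at each of ZT6, ZT10 and ZT18, against 4.16%, 4.43% and 4.12%. ZT14 had 3 genes against 5.41%, and ZT22 had 8 (9.41%) against 4.41%. Among the 61 genes above background on at least 12 arrays, 20 had a higher long-day mean at ZT6 (32.8%, against 47.1% of all probe sets), and 43 at ZT10 (70.5%, against 51.8%). The medians at those times were -0.21 and 0.14, against -0.04 and 0.03 over all probe sets. At the other 4 times the share was 45.9% to 62.3%. The probe sets in this comparison were not chosen by background. Over all 85 genes tested the share was 38.8% at ZT6 and 60% at ZT10, with medians of -0.17 and 0.10. All genes at a time shared the same 4 arrays and are not independent. At ZT6 the long-day arrays of sets 1 and 2 were the lowest of all 24 for 0 and 7 of the 61 genes. They were the highest for 4 and 0. The short-day ones were lowest for 0 and 4 and highest for 6 and 4. At ZT10 the long-day arrays were lowest for 1 and 1 and highest for 2 and 5. The short-day ones were lowest for 3 and 5 and highest for 0 and 1. The part of single arrays in these shares was not tested.

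The largest difference at one time was that of KCNQ3 at ZT10. The long-day arrays gave 36.4 and 61.1, and the short-day arrays gave 6.05 and 1.29, both under background. The groups did not overlap at this time. The fitted difference was 3.31 ± 0.68 (unadjusted p 6.6e-05, adjusted p = 0.187, limma), and the long-day level was at least 2.43-fold higher, with short-day values taken at background. Of the 24 fits that left out 1 array, those without short-day ZT22 array 1 or 2 called it (adjusted p = 0.0357 and 0.0288), and so did the one without short-day ZT10 array 1 (3.90, adjusted p = 0.0393). In that last fit short days at ZT10 held 1 array, assumed to vary like the other groups. With values under background raised to it, it was 1.22 and not called. At ZT14 the order of the means was the other way, 39.6 and 21.4 in long days and 55.6 and 57.9 in short days, a difference of -0.92, and of -0.49 without the array that stood apart. The probe set next in brightness, above background on 18 arrays, differed by -0.62 at ZT10, and the other 3 by -2.12, -0.34 and 0.19.

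KCNAB2 at ZT14 gave 662 and 299 on the long-day arrays and 1056 and 919 on the short-day arrays, with no overlap. The difference of -1.15 ± 0.30 (adjusted p = 0.576) rested on the array that stood apart. Without that array it was -0.55. Without the other long-day ZT14 array it was -1.75 (adjusted p = 0.00306), but the group then held only the array that stood apart, assumed to vary like the other groups, and 365 pairs of probe set and time were called in that fit. KCNK7, a two-pore-domain family member, was also called there (-1.89, adjusted p = 0.027). Its arrays at ZT14 gave 138 and 31.02 in long days and 139 and 99.3 in short days, a difference of -0.82 with all arrays and of 0.25 without the one that stood apart. The part of the low oligodendrocyte markers on this array in these values was not tested.

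CACNA1G at ZT2 likewise turned on one array. The long-day arrays gave 186 and 152, and the short-day arrays gave 195 and 23.3. The difference was 1.28 ± 0.60 (adjusted p = 0.999) with both short-day arrays, 2.80 (adjusted p = 0.019) without short-day array 1 and -0.23 without short-day array 2. In both of these fits 1 short-day array was left, assumed to vary like the other groups. KCNK17, a leak channel, had 9.59 and 1.87 in long days and 33.9 and 25.6 in short days at ZT18, so that the long-day level was at least 1.61-fold lower with values taken at background (adjusted p 1). KCNRG, which in human binds Kv subunits and keeps channels from the surface, had 27.5 and 4.88 in long days and 41.6 and 52.8 in short days at ZT22, or -1.79 ± 0.62 (-2.85 to -0.73 on leaving out 1 array). At ZT22 the 5 genes with a higher long-day mean and an unadjusted p under 0.05 included both calcium channel beta subunits. CACNB4 had 33.0 and 33.1 in long days and 15.9 and 8.28 in short days, both under background. CACNB2 had 57.4 and 50.9 in long days and 39.0 and 10.5 in short days. Neither passed the adjusted test, and at ZT6 neither was higher in long days (median -0.79). Over all times the other CACNB4 probe set, seldom above background, differed by -0.24. The 4 others of CACNB2, of which 1 was above background on at least 12 arrays, gave -0.31 to 0.02. KCNJ6 at ZT10 was above background on all 24 arrays, with 155 and 140.4 in long days and 85.1 and 88.8 in short days, a difference of 0.76 ± 0.31 (adjusted p 1). KCNJ3 at ZT6 had 57.0 and 50.4 in long days and 27.3 and 7.49 in short days, or 1.75 ± 0.76 (0.92 to 2.58 on leaving out 1 array). In the other direction, KCNIP1, a Kv4-binding protein, had 36.6 and 12.8 in long days and 90.7 and 57.7 in short days at ZT2, or -1.65 ± 0.65 (-2.37 to -0.94 on leaving out 1 array). KCNN1 at ZT14 had 12.9 and 11.7 in long days, both under background, and 25.5 and 30.7 in short days, a difference of -1.09 ± 0.52, and of -1.03 without the array that stood apart.

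The 2 highest and 2 lowest differences of each time, among genes above background on at least 12 arrays, were 24 in number. Leaving out 1 array moved 21 of them by over 1.5 times or turned them, the others being KCNQ3 and KCNK17 at ZT10 and KCNN1 at ZT14. SCN1A had 29.6 and 49.9 in long days and 22.6 and 3.46 in short days at ZT18, or 1.85 ± 0.87 (0.72 to 2.99 on leaving out 1 array). It was also among the highest at ZT22 (1.74 ± 0.87, or 0.67 to 2.82) and at ZT14 (1.22 ± 0.87, or -0.21 to 2.65), without a call. With values under background raised to it, SCN1A gave 0.86 at ZT18, 0.47 at ZT22 and 0.01 at ZT14. Higher long-day values of SCN1A were not confined to these hours. At ZT10 it had 26.1 and 32.2 in long days and 16.4 and 12.8 in short days. KCNQ3 at ZT22 gave 1.55 ± 0.68, or 0.19 to 2.92.

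Several of the other extremes came from genes close to background. KCNG3, a silent modifier of Kv2 channels, had 18.8 and 0.617 in long days and 26.0 and 28.6 in short days at ZT6, or -2.05 ± 0.95 (-3.60 to -0.50 on leaving out 1 array), and its relative KCNG2 gave -1.18 ± 0.61 there (-1.74 to -0.62). KCNU1, a relative of the BK channel known from mouse sperm, gave 1.02 ± 0.65 at ZT6 (0.16 to 1.87), and KCNH5, an ether-a-go-go channel, 1.24 ± 0.76 at ZT10 (0.22 to 2.27). KCNJ15, an inward rectifier above background on 12 arrays, was among the extremes at 3 times and in both directions. Its difference was -1.27 at ZT2 (-2.47 to -0.06 on leaving out 1 array), 1.59 at ZT18 (0.38 to 2.80) and -1.34 at ZT22 (-2.02 to -0.66). CACNA1E at ZT18 had 4.15 and 41.0 in long days and 50.3 and 39.3 in short days, or -1.60 ± 0.75 (-3.07 to -0.13). The remaining ones were CACNA1I at ZT2 (1.48 ± 1.03), KCNJ8 at ZT14 (1.31 ± 0.65), and KCNK17 (-0.85 ± 0.80) and KCNE4 (-0.84 ± 0.64) at ZT10.

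Both arrays of one photoperiod were above background and both of the other under it in 18 of 588 gene and time pairs of channel genes, or 3.06%. Over all probe sets this held for 2.98% of pairs, and over all named genes for 2.87%. The bound on the fold was 1.04 to 2.43, and it was highest for KCNQ3 at ZT10.

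**Figure D4:**
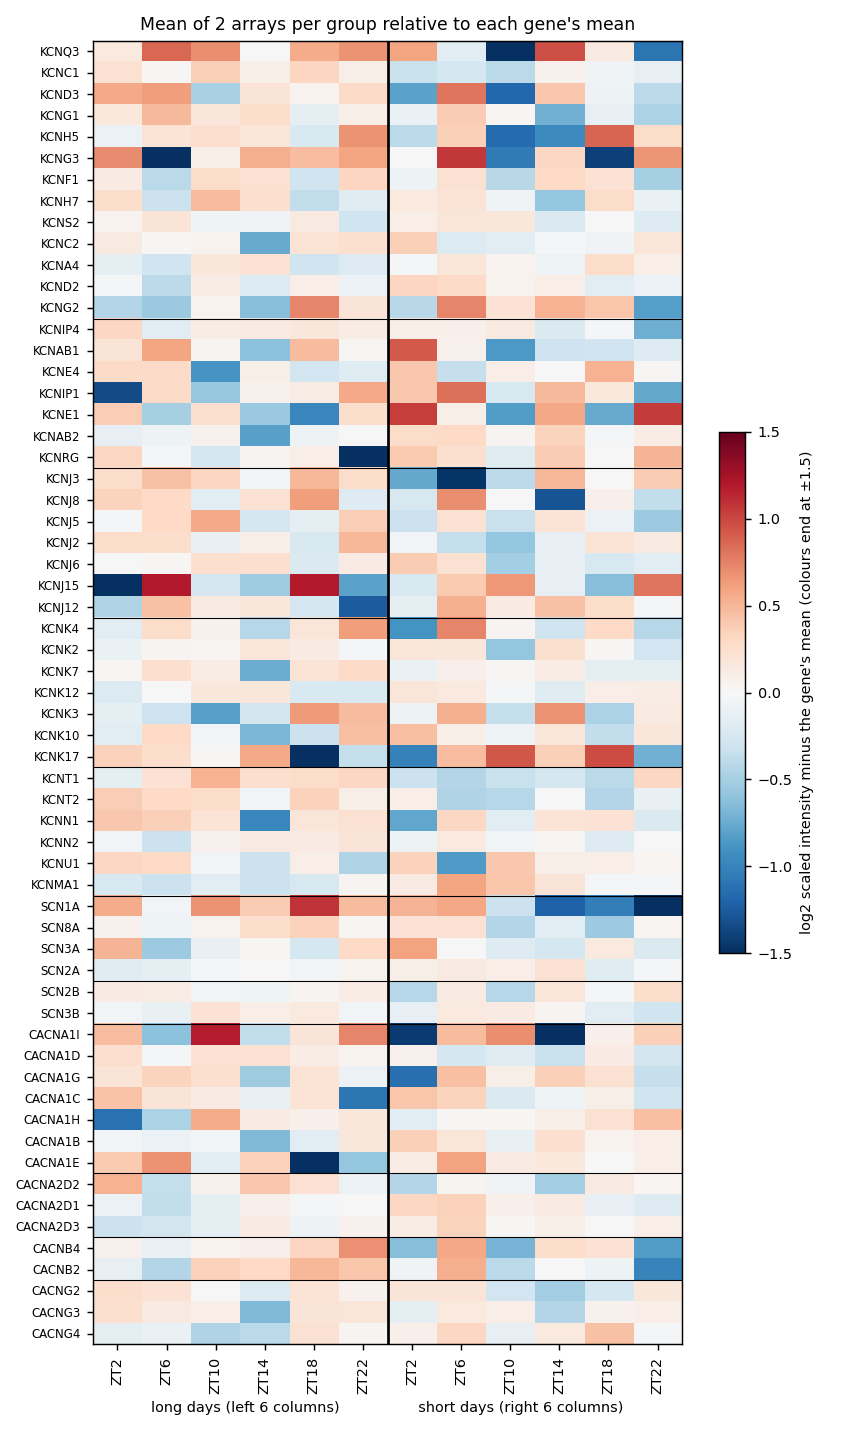
Mean log2 scaled intensity of 2 arrays per group relative to the gene's own mean over groups, for the 61 channel genes above background on at least 12 arrays, with long days in the left 6 columns and short days in the right 6, each from ZT2 to ZT22. Colours end at 1.5 log2 units either way and thin lines part the subfamilies. The darkest cell of KCNQ3 is that of short days at ZT10, where its arrays were 6.05 and 1.29.

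Time of day gave no call among the channel genes. In limma, 0 of 85 passed the F test over the 6 times in long days (0% of all probe sets passed), 0 in short days (0.0208%) and 0 for the interaction of photoperiod and time (0.00694%). At an unadjusted p under 0.05 there was 1 gene in each test, against 3.42%, 3.7% and 3.31% of all probe sets. These were KCNK18 in long days (adjusted p 1) and KCNQ3 both in short days (adjusted p = 0.591) and in the interaction (adjusted p 1). Members next in order had unadjusted p of 0.0685 (CACNA1E), 0.0719 (KCNE2), 0.0802 (KCNK3), 0.0842 (KCNAB2) and 0.0980 (CACNA1S) in long days, and of 0.0884 (KCNJ6), 0.107 (SCN2B), 0.131 (SCN4B), 0.146 (CACNA1G) and 0.150 (KCNA5) in short days. That of KCNAB2 rested on the long-day ZT14 array that stood apart. Its long-to-short difference at ZT14 was -1.15 with that array and -0.55 without it. In the interaction they were KCNK18, KCNK3, CACNA1S, KCNK17 and KCNIP1, between 0.0616 and 0.102. KCNQ3 in short days was called when short-day ZT22 array 1 was left out (adjusted p = 0.0342).

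A 24 h cosine passed for 0 of 85 genes in long days (0% of all probe sets) and for 0 in short days (0.0208%), in limma. At an unadjusted p under 0.05 there were 4 genes in each, 4.71%, against 4.03% of all probe sets in long days and 4.62% in short days. KCNK3 on long-day arrays gave 32.0 and 34.0 (ZT2), 43.3 and 20.0 (ZT6), 18.1 and 23.7 (ZT10), 27.8 and 32.5 (ZT14), 62.5 and 51.4 (ZT18), and 46.4 and 55.1 (ZT22). The high values lay at ZT18 and ZT22, and the cosine had an amplitude of 0.62 ± 0.21 log2 units and peaked at 20.6 h. In short days the amplitude of KCNK3 was 0.14 ± 0.21. The other long-day genes were KCNK18 (amplitude 1.06 ± 0.36), CACNA1E (0.83 ± 0.30) and KCNJ12 (0.61 ± 0.23), with peaks at 8.64 h, 6.44 h and 9.85 h. Only 2 of 12 long-day arrays had KCNK18 above background, and its amplitude was 0.12 with values under background raised to it. On leaving out 1 array the amplitude was 0.37 to 1.02 for CACNA1E and 0.30 to 0.80 for KCNJ12. Next came KCNH1 (0.93 ± 0.37) and KCNK15 (0.80 ± 0.37), on 2 and 6 long-day arrays above background. In short days CACNG2, above background on all arrays, peaked at 1.95 h with an amplitude of 0.39 ± 0.13, and KCNJ3 peaked at 17.3 h with 0.78 ± 0.29. KCNA5 and KCNV2 also had an unadjusted p under 0.05 there, on 0 and 1 arrays above background. SCN1A (0.85 ± 0.33) and KCNJ6 (0.30 ± 0.13) followed. The median amplitude over the 85 genes was 0.25 in both photoperiods, as it was over all named genes in long days, where in short days these had 0.27. Over all probe sets it was 0.31 (long days) and 0.32 (short days).

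Probe sets of one gene often differed in the sign of the difference. Of the 98 genes, 54 had several probe sets, and 49 of their 103 other probe sets differed between photoperiods in the same direction as the one used. Signs were counted whatever the signal, and many of the other probe sets were seldom above background. The count therefore cannot separate real disagreement from noise of dim probe sets. It was not compared with that of other genes with several probe sets. KCNJ5 and KCNK2 were cases where all 3 others had the same sign, while for CACNB2 it was 1 of 4.

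Other genes of membrane excitability, from lists chosen with earlier results of these data known, gave no call either. Of 20 other cation channels tested, 0 passed in limma (0 at an unadjusted p under 0.05), with a median of 0.07. The smallest p belonged to TPCN2 (-0.54 ± 0.27), TRPV2 (0.73 ± 0.36, above background on 10 arrays) and TRPC4 (-0.55 ± 0.32). NALCN, the sodium leak channel, differed by -0.30 ± 0.19, and HCN4, a pacemaker channel, by 0.11 ± 0.35. Of 26 channel partners and anchors, 0 passed and 1 had an unadjusted p under 0.05, with a median of 0.01. That gene was ANK3, whose product ankyrin G holds sodium channels and KCNQ3 at the axon initial segment (-0.21 ± 0.08, adjusted p = 0.712).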

How the data were processed

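RNA of the quail mediobasal hypothalamus was measured on 24 chicken arrays. The deposited values are linear intensity values per probe set, and GCOS 1.2 is named per the submitters' processing notes; its settings were not given in sources used here. Array medians were 10.9 to 21.05. Values were computed here as log2(intensity + 1.497) centred on each array's median; a pseudocount understates differences of dim genes. Of 38439 probe sets without controls, the lowest 25% by mean were left out. limma 3.58.1 in R 4.3.3 fitted 12 group means (eBayes with trend, 12 residual degrees of freedom) and, separately, 24 h cosines, with Benjamini-Hochberg adjustment over 28829 probe sets and 0.05 as the threshold. Symbols came from the platform annotation, and 87 of the 98 occur in the gene table of Coturnix japonica 2.1.

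Arrays of 1 group are biological replicates per the labels. The members and gene lists were chosen with earlier results of these data known. Named with values were the 12 smallest photoperiod p, the 6 smallest of the time tests, extremes per time and subfamily, and other members within their subfamily. Fits were tested on simulated data. Alternatives were other pseudocounts, scalings, filters and variance models, array weights, a replicate block, each array set alone, all probe sets, and leaving out each array. Scaling before the pseudocount and raising values to background were added after the data were seen. Sequences are not printed.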

Additional observations from a re-analysis of the deposited data

How the results depend on the processing

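Over 88 results and 40 other settings there were 3297 comparisons, of which 3267 kept the side of the threshold and, where they had one, the direction. Counts of calls, F tests and cosine amplitudes have no direction and could not reverse. Of the differences between photoperiods, 18 comparisons reversed. The 7 counts of called channel genes were 0 under every other pseudocount, scaling, filter, variance model and weighting tried, and so was the photoperiod count in each array set alone. Leaving out 1 array moved the count at single times within 0 to 2 and that for time of day in short days within 0 to 1; KCNQ3, KCNAB2, KCNK7 and CACNA1G were the genes called. Replicate numbers were not taken to pair the samples: the correlation of deviations was above 0 for all 66 pairs of groups (0.01 to 0.103, median 0.0448) but over 0.1 for 3, and array set 1 was brighter in every group before scaling. With the replicate block 0 channel genes were called, while all probe sets past the photoperiod test were 76, against 38 without it, with 74 after quantile normalization, 16 in array set 2 alone and 12 without centring. At single times all calls were 48 with the block, 48 with quantile normalization, 15 with a pseudocount of 16, 11 without centring, 11 without a variance trend and 26 as reported. Without short-day array 1 of ZT14 they were 108, and without that of ZT10 they were 96. Without long-day ZT14 array 1 they were 365, while calls for time in long days were 93, against 0 with all arrays, and for the interaction 32, against 2. In short days the 6 calls for time were 11 with the block, 3 with a pseudocount of 16 or without the trend, and 0 without centring. They were 36, 22 and 19 without short-day array 1 of ZT14, ZT10 and ZT2. The 6 cosine calls were 11, 3, 2 and 2 in that order of block, pseudocount, trend and centring. Of the 85 genes, 21 (24.7%) had the opposite direction in array set 1 alone and 12 (14.1%) in set 2 alone, against 26.7% and 22.2% of all probe sets. Among the 27 genes followed through all settings for photoperiod, those that reversed were CACNB4 (-0.21), CACNG2 (-0.21) and SCN4B (-0.78) in array set 1 alone, CACNA1E (0.23) in array set 2 alone, and KCNE2 (0.034) and KCNK5 (0.016) with values under background raised to it. Leave-one-out ranges crossed 0 for CACNA1G at ZT2 (-0.23 to 2.80), CACNA1I at ZT2 (-0.58 to 3.55), SCN1A at ZT14 (-0.21 to 2.65), KCNE4 at ZT10 (-1.90 to 0.21) and SCN4B over all times (-0.22 to 0.30). The cause of these reversals was not tested. Signal over background limits 37 of the 98 genes, which were above it on fewer than 12 arrays, and 2 arrays a group limit every single time.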

Other observations

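Chloride and anion channels and the pumps that restore the ion gradients were looked at beside the cation channels. Of 22 chloride and anion channel genes tested, 0 passed the photoperiod test in limma and 0 had an unadjusted p under 0.05, with 14 higher in long days and a median difference of 0.04. LRRC8D, a subunit of volume-regulated anion channels, differed by 0.37 ± 0.18 (adjusted p = 0.917), and CLCN2, an inwardly rectifying chloride channel, by 0.50 ± 0.27 (adjusted p = 0.935). Of 14 sodium pump and calcium extrusion genes, 0 passed and 0 had an unadjusted p under 0.05, with 9 higher and a median of 0.15. ATP1B3, a beta subunit of the sodium pump, differed by 0.15 ± 0.08 (adjusted p = 0.917). SLC24A2 and SLC24A4, which exchange sodium for calcium and potassium, differed by 0.38 ± 0.21 and 0.51 ± 0.26.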
